A study of Mus musculus with 6 samples.

Results

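The genes that make nitric oxide, supply and rebuild its substrate arginine, and turn arginine into ornithine and polyamines were followed in RAW 264.7 cells, a mouse line that resembles macrophages. The genes are Nos2, Gch1, Ass1, Slc7a2, Arg1, Arg2 and Odc1, and the probes were those whose platform annotation names 1 of these symbols and no other. Of 16281 probes on the array, 9 met this condition, and 8 of these had a ratio on all 6 arrays and covered all 7 genes, of 9607 genes so measured and 10698 with such a probe. The remaining probe, 10674 of Slc7a2, had a listed value of 0 on every array, which was taken as no ratio. Treated cells were cultured for 16 hours with bacterial lipopolysaccharide (LPS, 100 ng/ml) and LPS-binding protein (100 pM), and untreated cells for the same 16 hours without them. RNA of treated and untreated cells shared each of 6 dual-colour arrays, with treated RNA in Cy5 on 3 arrays and in Cy3 on 3, and each orientation held sets 1, 2 and 3. The labels also write the line as 264.4. They leave unsaid whether sets were grown separately, and p-values therefore cover the spread among these arrays, possibly a technical one.

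In macrophages, the inducible synthase Nos2 makes nitric oxide and citrulline from arginine and needs the cofactor tetrahydrobiopterin, whose synthesis starts with Gch1. Arginine enters through cationic transporters such as Slc7a2 and is rebuilt from citrulline by Ass1 together with Asl. The arginases Arg1, in the cytosol, and Arg2, in mitochondria, instead split arginine into urea and ornithine, from which Odc1 makes putrescine, the first polyamine.

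Each value compares the channels of an array as a log2 ratio, turned here to treated over untreated. The table does not state its direction; Cy5 over Cy3 was used and is the likely one, since in both orientations the labels name the Cy5 RNA as the test. If the table ran the other way, every sign below would turn and each rise would be a fall, with sizes and p-values as given. Before turning, arrays of opposite orientation correlated between -0.852 and -0.622 across probes, which are not independent replicates. A set's value is the mean of its 2 arrays, and means below carry the SD over 3 sets. Adjusted p-values are from limma with Benjamini-Hochberg adjustment over 13418 probes, with a threshold of 0.05. Ratios carry no level, so neither the abundance of a transcript nor the presence of macrophage markers could be checked. In RNA of whole cultures, more responding cells and more RNA per cell cannot be told apart. Of 6 probes of macrophage markers with a ratio, 4 were higher (66.7%, against 16.9% of all probes), namely Fcgr1, Adgre1, Lyz2 and Cd68. The probe of Csf1r was lower (1 of 6, or 16.7%, against 13.9% of all probes). Cd68 lost its call without set 1 (adjusted p = 0.118) and without set 2 (0.0685), and Csf1r without set 1, 2 or 3 (0.091, 0.149 and 0.0584). The 2 probes of T cell, 3 of fibroblast and 3 of epithelial markers gave 0 calls in limma, against 30.8% of all probes. At an unadjusted p under 0.05 they gave 0 as well. Of 3 probes of B cell markers, 1 rose (33.3%, against 16.9% of all probes), that of Cd79a (log2 0.35 ± 0.12). Its call was lost without set 3 (adjusted p = 0.0591 in limma). Both probes of Ms4a1 (0.04 and 0.07) did not pass.

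Nos2, Gch1, Ass1, Arg2 and Odc1 rose in treated cells, by 2.07-fold to 4.04-fold, and Arg1 and Slc7a2 did not pass the test. Counted by probe, 6 of 8 rose and 0 fell in limma (0 lower also at an unadjusted p under 0.05), whereas over all probes tested 30.8% were called, 16.9% higher and 13.9% lower. With the direction turned, 6 of 8 probes would be lower, against 16.9% lower and 13.9% higher over all probes. All 6 of these probes rose at least 2-fold, which 3.85% of all probes did. The same 6 probes had one sign on all 6 arrays, as did 34.6% of all probes. The median of the 8 probes was 1.41 on the log2 scale, against -0.01 for all probes tested.

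**Figure D1:**
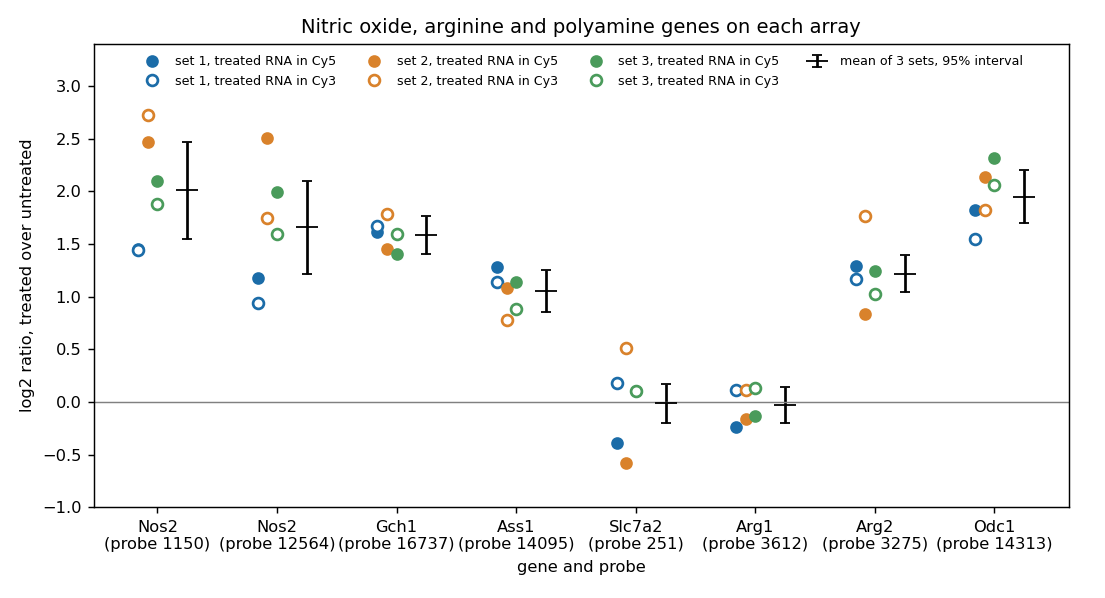
Log2 ratio of treated over untreated for the 8 probes, with a point for each array, coloured by set and filled where treated RNA was in Cy5. Black bars are the mean of 3 sets with limma's 95% interval; the points of 6 probes all lie above 0, between 0.78 and 2.73, while those of Slc7a2 and Arg1 lie on both sides of it.

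**Figure D2:**
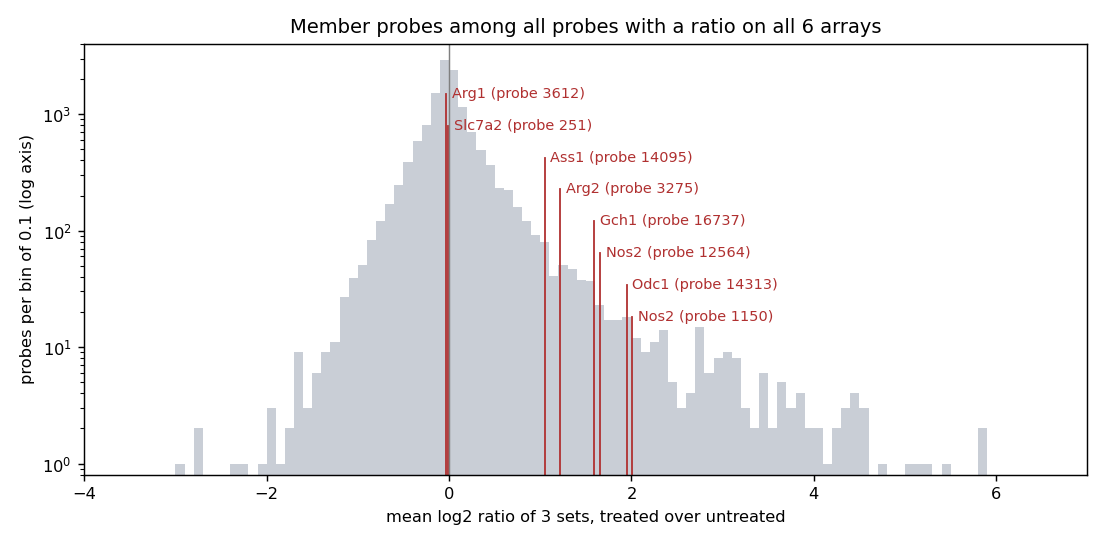
Mean log2 ratio of treated over untreated for the 13418 probes with a ratio on all 6 arrays, in bins of 0.1 with a logarithmic count axis. Red lines mark the 8 probes; the 6 that rose lie where between 1.12% and 3.58% of probes were higher, and Slc7a2 and Arg1 lie at the centre.

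Sequence of the region just before the start of transcription was at hand for 3 of the 5 genes that rose, Gch1, Ass1 and Odc1, and is shown because these 3 rose together. The sequences are RefSeq's on build GRCm38.p6, 250 bases each up to the base before the start, written 5′ to 3′ on the gene's strand. They come from chr14:47189414-47189663 (minus strand) for Gch1, chr2:31470020-31470269 (plus strand) for Ass1 and chr12:17544623-17544872 (plus strand) for Odc1.
Gch1: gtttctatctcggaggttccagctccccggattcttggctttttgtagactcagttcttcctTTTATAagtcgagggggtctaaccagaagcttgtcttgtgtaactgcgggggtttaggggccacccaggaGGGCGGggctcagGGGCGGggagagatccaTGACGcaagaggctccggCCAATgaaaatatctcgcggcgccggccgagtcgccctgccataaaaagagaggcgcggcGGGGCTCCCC
Ass1: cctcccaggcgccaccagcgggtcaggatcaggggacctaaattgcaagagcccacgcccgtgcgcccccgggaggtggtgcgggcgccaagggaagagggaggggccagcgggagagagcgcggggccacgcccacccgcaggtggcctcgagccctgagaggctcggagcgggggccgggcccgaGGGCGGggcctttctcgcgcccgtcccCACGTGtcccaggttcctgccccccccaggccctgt
Odc1: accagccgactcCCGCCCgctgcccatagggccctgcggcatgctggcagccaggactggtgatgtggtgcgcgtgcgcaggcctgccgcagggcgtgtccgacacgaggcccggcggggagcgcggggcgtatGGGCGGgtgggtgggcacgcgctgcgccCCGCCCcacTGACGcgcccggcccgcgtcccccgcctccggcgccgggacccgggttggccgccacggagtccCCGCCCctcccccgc
Capitals mark matches to any of 7 motifs searched on both strands. These were the GC box (GGGCGG), the CCAAT box (CCAAT), the E-box (CACGTG), the CRE core (TGACG), the TATA box (TATAAA), an interferon-stimulated response element core (AAANNGAAA) and the kappaB consensus. The GC box was in all 3 windows and in 32.7% of 32851 promoter windows of the same length. Gch1 held it 2 times, starting 118 and 105 bases before the start, Ass1 1 time at 63, and Odc1 4 times, at 238, 116, 88 and 15. The CRE core was in Gch1 (88 bases before the start) and Odc1 (79), and in 17.8% of all windows. Gch1 also held a CCAAT box at 70, a TATA box letter match on the opposite strand at 188 and a kappaB match in the last 10 bases, motifs found in 33.8%, 12.4% and 7.25% of windows. Ass1 held an E-box at 36, which 6.02% of windows had, and the interferon-stimulated response element core matched none of the 3 and 9.37% of all windows. No 2 of the marked matches to different motifs overlapped. The GC content of the windows was 59.2% for Gch1, 75.6% for Ass1 and 80.0% for Odc1, against a median of 52.4% over all windows. A match is a run of letters, not a measured site.

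Nos2 rose by both of its probes, on every array. Probe 1150 had log2 ratios of 1.45, 2.47 and 2.10 in sets 1, 2 and 3 with treated RNA in Cy5, and of 1.44, 2.73 and 1.88 with treated RNA in Cy3. Set 1 was the lowest and set 2 the highest in both orientations. Its mean was 4.04-fold (log2 2.01 ± 0.58, 95% interval 1.55 to 2.47, adjusted p = 0.000366). Probe 12564 had 1.18, 2.51 and 1.99 with treated RNA in Cy5 and 0.94, 1.75 and 1.60 with treated RNA in Cy3, again lowest in set 1 and highest in set 2. It averaged 3.16-fold (log2 1.66 ± 0.55, 95% interval 1.22 to 2.10, adjusted p = 0.000681). Probe 1150 read higher than probe 12564 on 5 of 6 arrays, by 0.35 on average and by at most 0.98, in set 2 with treated RNA in Cy3. Between sets the Nos2 ratio thus spanned 2.23-fold by probe 1150 and 2.10-fold by probe 12564, the widest spans of the 8 probes. For comparison, the SD over sets of all probes tested had a median of 0.13. In order of mean ratio, which would run backwards with the direction turned, Nos2 probe 1150 was followed by Odc1, Nos2 probe 12564, Gch1, Arg2, Ass1, Slc7a2 and Arg1, and the mean of both Nos2 probes (log2 1.84) stood below Odc1 (1.95). The 95% intervals of neighbours in this order overlapped, except between Gch1 and Arg2 and between Ass1 and Slc7a2.

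Gch1, the entry enzyme of tetrahydrobiopterin synthesis, rose evenly. Its log2 ratios were 1.61, 1.45 and 1.41 in sets 1, 2 and 3 with treated RNA in Cy5 and 1.67, 1.79 and 1.60 with treated RNA in Cy3. The 3 sets lay within 0.13 of each other, and the mean was 3.01-fold (log2 1.59 ± 0.07, 95% interval 1.41 to 1.77, adjusted p = 1.44e-05). The ratio of Gch1 exceeded that of Nos2, taken as the mean of its probes, by 0.39 in set 1 and lay below it by 0.75 in set 2 and by 0.38 in set 3. The mean difference was -0.25 ± 0.58 and did not pass an exact sign-flip permutation test over the 3 sets (two-sided p = 0.75).

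The other genes of tetrahydrobiopterin synthesis and recycling held no rise that passed the test. Of 8 listed, 5 had a probe with a ratio, of which 2 fell and 0 rose in limma (3 lower and 0 higher at an unadjusted p under 0.05), with a median of -0.26 on the log2 scale. That is 40.0% lower, against 13.9% of all probes, and 0.0% higher, against 16.9%. Pts, which carries out the step after Gch1, was at 0.715 of the untreated level (log2 -0.48 ± 0.14, adjusted p = 0.00472). Qdpr, which recycles the oxidised cofactor, was at 0.811 (log2 -0.30 ± 0.09, adjusted p = 0.0226), a call lost without set 1 (0.117) and without set 3 (0.0711), where the list had 1 fall. Sepiapterin reductase, Spr, which makes the last step, stood at log2 -0.26 (adjusted p = 0.0937). The recycling dehydratases Pcbd1 and Pcbd2 stood at -0.24 (0.159) and 0.08 (0.538).

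The other nitric oxide synthases did not pass the test. The 3 probes of the neuronal form Nos1 ranged from -0.21 to 0.01 and the 2 of the endothelial form Nos3 were at 0.08 and 0.18 on the log2 scale, with adjusted p in limma from 0.0954 to 0.993. The list that joins them to the nitric oxide response had 18 probes, with a median of 0.01. Of these, 2 rose and 0 fell in limma (5 higher and 3 lower at an unadjusted p under 0.05). That is 11.1% higher, against 16.9% of all probes, and 0.0% lower, against 13.9%. Both rises were of Txnrd1, a thioredoxin reductase, whose 3 probes stood at 0.30 (adjusted p = 0.0207), 0.25 (0.0441) and 0.20 (0.0853). The first lost its call without set 1 or 2 (0.0676 and 0.0946) and the second without set 1, 2 or 3 (0.224, 0.0899 and 0.0805). Without set 1 the one call on the list was a rise of Prkg1 probe 432 (0.0398), and without set 2 a rise of Nos3 probe 17460 (0.0497). Over all 3 sets the probes of Prkg1 disagreed in sign, with probe 432 at 0.28 (adjusted p = 0.0518 in limma) and probe 15312 at -0.20 (0.0979). Gucy1a1 and Gucy1b1, the subunits of the nitric oxide receptor guanylate cyclase, ranged from -0.02 to 0.06.

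Ass1, which joins citrulline to aspartate on the way back to arginine, rose 2.07-fold. Its log2 ratios were 1.28, 1.08 and 1.14 in sets 1, 2 and 3 with treated RNA in Cy5 and 1.14, 0.78 and 0.88 with treated RNA in Cy3. Set 1 was the highest in both orientations, the reverse of Nos2, whose set 1 was the lowest. The mean was log2 1.05 ± 0.14 (95% interval 0.85 to 1.25, adjusted p = 0.000156). Ass1's ratio lay 0.04, 1.43 and 0.88 below that of Nos2 in sets 1, 2 and 3, and below it on all 6 arrays. The smallest p that 3 sets allow in the exact sign-flip permutation test is 0.25, which this difference reached. Asl, which completes the return to arginine, was on the list but was not measured here.

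Slc7a2, a cationic amino acid transporter, was measured by probe 251 alone. Its log2 ratios were -0.39, -0.58 and 0.10 in sets 1, 2 and 3 with treated RNA in Cy5 and 0.18, 0.51 and 0.10 with treated RNA in Cy3. With treated RNA in Cy5, sets 1 and 2 lay below 0, whereas all 3 arrays with treated RNA in Cy3 lay above it. Averaged over orientations the sets were at -0.10, -0.03 and 0.10, and the mean was -0.01 ± 0.10 (95% interval -0.20 to 0.17, adjusted p = 0.94). That interval runs from 0.872-fold to 1.13-fold.

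The list of arginine transport and the urea cycle had 5 of 11 probes higher (45.5%, against 16.9% of all probes). Lower were 3 (27.3%, against 13.9%), and the median was 0.14. The rises were of transporter genes, namely both probes of Slc3a2, and Slc7a1, Slc7a3 and Slc7a7. The falls were of Gamt, Gatm and Slc25a15. The urea cycle enzyme Otc stood at -0.02 (adjusted p = 0.896 in limma), and Asl, Cps1 and Nags were not measured. Slc7a3 lost its call without set 1 (0.0725) and set 3 (0.0912), and Gatm without set 1 (0.117) and set 3 (0.0524). Slc3a2, the heavy chain that pairs with several amino acid transporters, rose 1.84-fold (log2 0.88 ± 0.10, adjusted p = 0.00024) and 1.83-fold by its other probe. Slc7a7, which pairs with it to export arginine, rose 1.54-fold (log2 0.63 ± 0.06, adjusted p = 0.000874). Gamt, an enzyme of creatine synthesis, was at 0.573 of the untreated level (log2 -0.80 ± 0.14, adjusted p = 0.00052), and Slc25a15, the mitochondrial ornithine carrier, at 0.729 (log2 -0.46 ± 0.03, adjusted p = 0.00322). Slc7a1, the transporter most like Slc7a2 in role, is named here after its values were seen, since its 2 probes disagreed. Probe 11150 rose 1.37-fold (log2 0.45 ± 0.22, adjusted p = 0.0131), with 6 of 6 arrays above 0. Probe 1314 had -1.77, -1.63 and -1.19 with treated RNA in Cy5 and 1.70, 2.31 and 1.42 with treated RNA in Cy3, a mean of 0.14 (adjusted p = 0.339) that averages large opposite ratios.

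Of the arginases, Arg2 rose and Arg1 did not pass the test. Arg2, the mitochondrial form, had log2 ratios of 1.29, 0.84 and 1.24 in sets 1, 2 and 3 with treated RNA in Cy5 and of 1.17, 1.77 and 1.03 with treated RNA in Cy3. All 6 were above 0, and set 2 held both the lowest and the highest. The mean was 2.34-fold (log2 1.22 ± 0.08, 95% interval 1.04 to 1.40, adjusted p = 5.26e-05). Arg1, the cytosolic form and a gene of alternatively activated macrophages, had -0.24, -0.16 and -0.13 with treated RNA in Cy5 and 0.11, 0.11 and 0.13 with treated RNA in Cy3. The first 3 were all below 0 and the other 3 all above it, and the mean was -0.03 ± 0.03 (95% interval -0.20 to 0.14, adjusted p = 0.835), or 0.871-fold to 1.10-fold. Arg2 exceeded Arg1 by 1.29, 1.33 and 1.13 in sets 1, 2 and 3, a mean difference in log2 ratio of 1.25 ± 0.10, and on 6 of 6 arrays. Nos2 exceeded Arg1 by 1.32, 2.39 and 1.89, on 6 of 6 arrays as well. Of 5 pairs of genes compared, 4 (all but Gch1 and Nos2) reached the smallest possible p of 0.25 in the exact sign-flip permutation test, or 0.312 after Benjamini-Hochberg adjustment, so the design cannot pass 0.05 there.

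**Figure D3:**
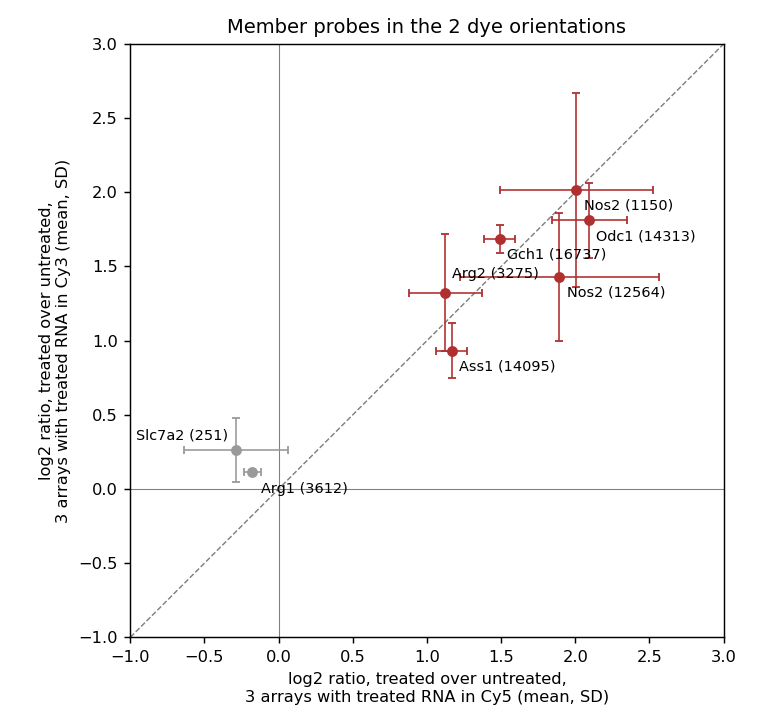
Mean log2 ratio of treated over untreated over the 3 arrays with treated RNA in Cy5 (horizontal axis) and over the 3 with treated RNA in Cy3 (vertical axis), with SD bars and the line of equality dashed. The 6 probes that rose, in red, lie in the upper right near the line, while Slc7a2 (-0.29 and 0.26) and Arg1 (-0.18 and 0.12), in grey, have opposite signs on the 2 axes.

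The dye orientation was tested as a term beside treatment in limma over the 6 arrays. None of the 8 probes passed after adjustment, against 0.335% of all probes. At an unadjusted p under 0.05 there were 2 of the 8, Slc7a2 (0.0238) and Arg1 (0.0267), against 16.3% of all probes. The Cy5-treated mean minus the Cy3-treated mean came to -0.55 for Slc7a2 and -0.30 for Arg1. Among the genes that rose, the largest such difference was 0.46, for Nos2 probe 12564 (adjusted p = 0.515). It was -0.01 for Nos2 probe 1150.

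Among other genes known for alternative activation of macrophages, several rose. Of 15 probes of 14 genes, 8 rose (53.3%, against 16.9% of all probes) and 1 fell (6.67%, against 13.9%), with a median of 0.28. The rises were those of Ccl22, Ccl24, Il4ra, Cd36, Egr2, Pparg, Retnla and Irf4. Ccl22, a chemokine, rose 2.42-fold (log2 1.27 ± 0.09, adjusted p = 4.47e-05). Ccl24, a chemokine too, rose 2.28-fold by probe 2817 (log2 1.19 ± 0.08, adjusted p = 5.69e-05) and stood at -0.08 by probe 5132 (adjusted p = 0.483). The lectin receptor Clec10a was at 0.528 of the untreated level (log2 -0.92 ± 0.36, adjusted p = 0.00224). Retnla lost its call without set 2 (0.173) and set 3 (0.0895), and Irf4 without set 1 (0.162) and set 3 (0.108). The mannose receptor Mrc1 (0.13) and Chil3 (0.04) did not pass.

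Odc1, which makes putrescine from ornithine, rose 3.87-fold. Its log2 ratios were 1.82, 2.14 and 2.32 in sets 1, 2 and 3 with treated RNA in Cy5 and 1.55, 1.82 and 2.06 with treated RNA in Cy3. Set 1 was the lowest and set 3 the highest in both orientations, and the mean was log2 1.95 ± 0.25 (95% interval 1.70 to 2.20, adjusted p = 2.86e-05). Odc1 exceeded Arg1 by 1.75, 2.00 and 2.19 in sets 1, 2 and 3.

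Around Odc1, the remaining polyamine genes went both ways, with 4 of 11 probes higher (36.4%, against 16.9% of all probes) and 3 lower (27.3%, against 13.9%), and a median of 0.08. Sat1, which acetylates spermidine and spermine for export or breakdown, rose 3.59-fold (log2 1.84 ± 0.35, adjusted p = 9.22e-05). Its sets stood at 1.44, 2.09 and 2.01, lowest in set 1 as for Nos2 and Odc1. Azin1, which frees Odc1 protein from its inhibitor antizyme, rose 1.63-fold (log2 0.71 ± 0.25, adjusted p = 0.00261), and both probes of Slc3a2, already given, are counted here too. Mtap, which salvages the by-product of polyamine synthesis, was at 0.649 of the untreated level (log2 -0.62 ± 0.22, adjusted p = 0.00319), and Atp13a2, a lysosomal polyamine exporter, at 0.722 (log2 -0.47 ± 0.11, adjusted p = 0.00422). Mat2b, a subunit of the enzyme that makes S-adenosylmethionine, was at 0.775 (log2 -0.37 ± 0.07, adjusted p = 0.00931), a call lost without set 1 (0.0621). Spermine synthase, Sms, stood at 0.09, -0.17 and 0.95 in sets 1, 2 and 3 and did not pass (adjusted p = 0.339). Srm, Amd1, Oaz1, Paox and Eif5a lacked a probe with 6 ratios.

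The branch that links ornithine to proline had 1 of 5 probes higher and 1 lower, 20.0% each, near the 16.9% higher and 13.9% lower over all probes. Aldh18a1, which starts proline and ornithine synthesis from glutamate, rose 1.48-fold (log2 0.56 ± 0.25, adjusted p = 0.00688). Oat, which links ornithine to the precursor of proline, was at 0.742 of the untreated level (log2 -0.43 ± 0.12, adjusted p = 0.007).

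**Figure D4:**
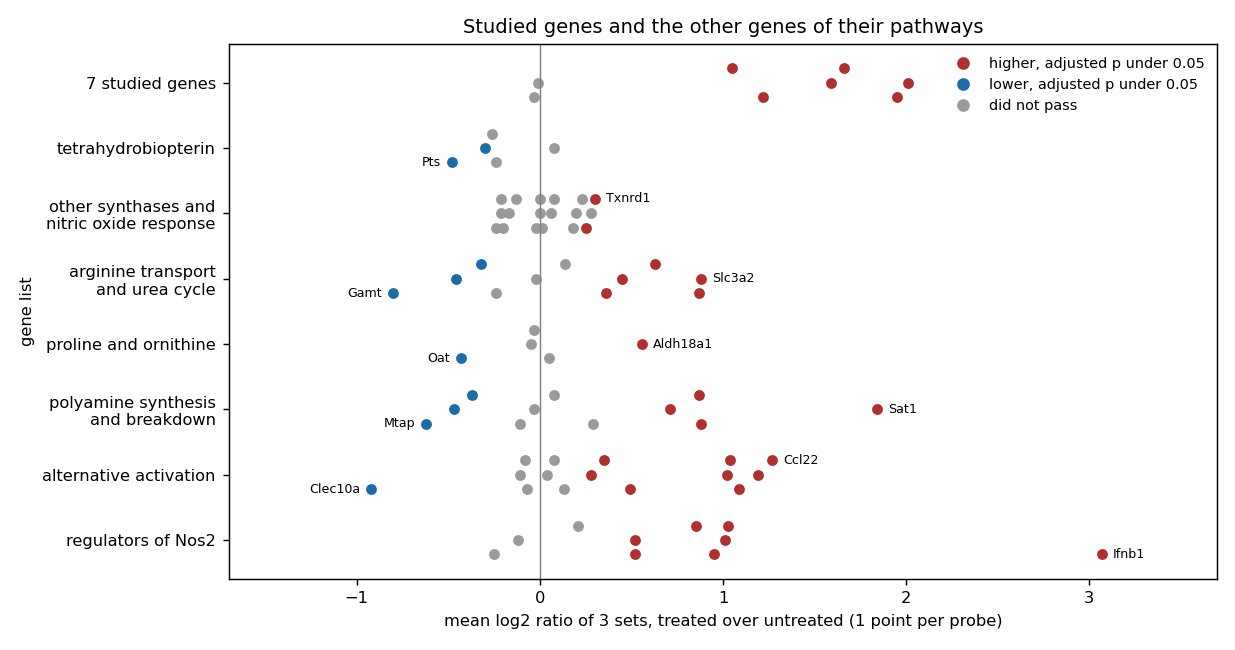
Mean log2 ratio of treated over untreated, 1 point per probe, for the 7 studied genes and 7 lists of related genes. The lists of alternative activation genes and of regulators of Nos2 are not drawn from the pathways themselves. Called rises are in red, called falls in blue and the rest in grey, and the vertical spread within a row only separates points. The studied genes hold 6 red points from 1.05 to 2.01, whereas the tetrahydrobiopterin list holds no red point and the polyamine list reaches from -0.62 (Mtap) to 1.84 (Sat1).

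Across all 7 lists of related genes, 25 of 73 measured probes rose (34.2%, against 16.9% of all probes). Another 10 fell (13.7%, near the 13.9% of all probes), and the median was 0.08. Among the rises, 8 were of alternative activation genes and 7 of genes known to act on Nos2, lists not drawn from the pathways themselves. The pooled share higher therefore does not describe the pathways alone. In the other lists, shares higher were 0.0% (tetrahydrobiopterin), 11.1% (other synthases and nitric oxide response) and 20.0% (proline and ornithine). They were 36.4% for the polyamine list and 45.5% for arginine transport and urea cycle. Shares lower ran from 0.0% (other synthases and nitric oxide response) to 40.0% (tetrahydrobiopterin). Of the genes known to act on Nos2, 7 of 10 probes rose, or 70.0% against 16.9% of all probes, and 0 fell in limma (8 higher and 1 lower at an unadjusted p under 0.05), with a median of 0.69. Ifnb1, encoding interferon beta, stood at 3.01, 2.29 and 3.91 in sets 1, 2 and 3 and rose 8.39-fold (log2 3.07 ± 0.81, adjusted p = 0.000207). Its set 2 was the lowest, where Nos2 was highest, and a link between Ifnb1 and Nos2 was not tested. The transcription factor Cebpb rose 2.04-fold (log2 1.03 ± 0.20, adjusted p = 0.00029) and 2.01-fold by its other probe. Without set 3, Jun was called lower (-0.33, adjusted p = 0.0435).

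The genes whose ratios came closest to those of Nos2 probe 1150, Gch1, Ass1, Arg1, Arg2 and Odc1, by root mean square difference over the 6 arrays, are given as a description of 6 arrays, 2 to a set. For Nos2 probe 1150 they were Dcxr (difference 0.25, mean log2 2.13), Cpd (0.26, 1.89) and Anxa3 (0.28, 1.88). For Gch1 they were H2-T23 (0.11) and both probes of Samsn1 (0.12 and 0.13). Sec14l1 (0.09), Mybpc3 (0.09) and Pml (0.10) came closest to Ass1, and Sh2d2a (0.14), Mcemp1 (0.15) and Bcl2l11 (0.17) to Arg2. Odc1 was closest to Clec4d (0.14), Uba7 (0.15) and Slfn3 (0.21), and Arg1 to Kcnj4 (0.06), Max (0.06) and Oprl1 (0.07), which also stood at about 0. Of these 6 probes, Nos2 probe 1150 had the largest difference to its closest gene.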

How the data were processed

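The values deposited by the authors are log2 ratios of an array's channels, a scale inferred from the range and the mixed signs, and the direction is inferred too. How background was corrected and ratios normalized is not given in the sources used here. Every column median is 0 as deposited and was kept. The highest absolute ratio is 100-fold. Exact zeros (9.56% to 12.86% of probes per array) were taken as missing, and 13418 probes with 6 ratios were tested. Names came from the platform annotation, in which 13738 probes have 1 symbol, 52 several and 2491 none; a look-up by Entrez identifier changed 0 symbols.

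Arrays were turned to treated over untreated, the orientations of a set were averaged, and limma 3.58.1 (lmFit, eBayes; R 4.3.3) tested whether the mean of the 3 sets differed from 0; the fit was tested on simulated data. Gene differences used an exact sign-flip permutation test (SciPy 1.17.1). The genes, the lists of related genes and the tests were chosen with earlier results of these data known. Every probe of the 7 genes is named; of each list, the 2 largest called rises and falls, all tetrahydrobiopterin genes, and the 3 most alike probes per gene. Others were named after their values were seen. Alternatives covered zeros, blocking, moderation, centring, normalization, filter, gene level, single orientations and each set left out. Depth does not apply; the number of arrays limits precision. Probe sequences were not analysed here, so binding to near-identical copies was not tested.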

Additional observations from a re-analysis of the deposited data

Results flagged for a closer look

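Arg1 is listed because its 3 arrays with treated RNA in Cy5 all lay below 0 and its 3 with treated RNA in Cy3 all above it, a difference of -0.30 on the log2 scale. The dye term did not pass in limma (adjusted p = 0.251).

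Slc7a1 probe 1314 is listed because its ratio differed between the dye orientations, by -3.34 on the log2 scale (treated RNA in Cy5 minus treated RNA in Cy3; adjusted p = 0.000757 in limma). Its other probe, 11150, showed no such call (adjusted p = 0.837).

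No array stood apart from the other 5 in any of the 35 probes examined for it, of genes named by the rule and of Slc7a1; chance alone marks about 5% of such groups.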

How the results depend on the processing

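Under 13 alternatives, the 6 probes of Nos2, Gch1, Ass1, Arg2 and Odc1 kept their direction and their call in all 78 values, with adjusted p of at most 0.00971 in limma (Nos2 probe 12564, robust moderation). Their log2 ratios ranged over the alternatives from 1.72 to 2.30 and from 1.43 to 1.96 for the Nos2 probes, 1.49 to 1.69 for Gch1, 0.93 to 1.17 for Ass1, 1.12 to 1.32 for Arg2 and 1.81 to 2.09 for Odc1. Slc7a2 and Arg1 were called in none (lowest adjusted p = 0.11). Slc7a2 changed sign on the arrays with treated RNA in Cy3 alone (0.26) and, with each set left out, ranged from -0.07 to 0.03. Arg1 (0.12) changed sign on the arrays with treated RNA in Cy3 alone, and Slc7a1 probe 1314 stood at -1.53 where treated RNA was in Cy5 and at 1.81 where it was in Cy3. At gene level Ccl24 was at 0.55, the mean of probes that disagree. With each set left out, Gch1 minus Nos2 ranged from -0.57 to 0.00184. The cause of these shifts was not tested. The values given average the arrays of a set, and without a replicate block, 4895 probes were called in place of 4129, and the same 6 of 8 probes of the studied genes. Deviations of same-numbered arrays correlated at 0.188, 0.05 and 0.544 in sets 1, 2 and 3, and limma's consensus correlation within sets was 0.379. Deviations of differently numbered arrays correlated between -0.365 and 0.196, a range that holds the values of sets 1 and 2. Of the genes that rose, Nos2, Ass1 and Odc1 ordered the sets alike in both orientations, and Gch1 and Arg2 did not. These values do not settle whether the numbers pair the arrays. Over the alternatives between 2907 and 4895 probes (genes, at gene level) were called. The signal over background of each probe is not given in these values, so noise in dim probes could not be weighed.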
